A study of Homo sapiens with 9 samples.

Results

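The genes described here are 31 targets that the transcription factor p53 is known to activate, listed by symbol. All 31 were found among the 61853 genes of the deposited table, and all 31 passed the filter on low counts. They were measured in 293T cells, a line derived from human embryonic kidney in which SV40 large T antigen, a viral protein that binds p53, is expressed. The 3 Scramble libraries came from cells given a scramble shRNA (labelled wild type) and the 3 DIS3-sh1 libraries from cells given the shRNA DIS3-sh1 (labelled DIS3 knockdown). DIS3 is the catalytic ribonuclease of the nuclear RNA exosome. Libraries were made from ribosomal-RNA-depleted total RNA. The labels give no time after treatment and no p53-activating treatment, and the DIS3-sh2 libraries that they also name were not analysed here.

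In cells with an intact pathway, p53 is kept low by MDM2, a ubiquitin ligase that is itself a p53 target, and by its relative MDM4. DNA damage or ribosomal stress frees p53, which then switches on genes for cell cycle arrest, DNA repair, apoptosis and its own restraint. Large T antigen binds the DNA-binding domain of p53, so 293T cells hold much p53 protein with a blunted transcriptional output. Many p53 targets also answer to other factors, such as ATF4 and the FOXO proteins.

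Candidate p53 response elements are shown for the 3 members in which one was found, and these genes did not move together. A p53 response element is a pair of 10-base motifs. It was searched for in the 250 bases before each RefSeq start (GRCh38.p14) of the 24 members with a promoter entry. It was found in 4 of 35 such windows, belonging to MDM2, FAS and AEN. Overlapping windows of MDM2 held the same element, and each element shown had 2 mismatches, the most allowed. Among all 35116 windows of the reference, 0.441% held one, and among windows of tested genes 0.380%. The elements are written 5′ to 3′ on the plus strand, with the element in capitals. The MDM2 stretch, chr12:68808883-68808982, lies inside the gene and overlaps no annotated exon (GENCODE 29), and its element starts 94 bases before one of the gene's downstream start sites. The FAS element, chr10:88991309-88991328, lies in an annotated exon of FAS and of ACTA2, a gene on the other strand. The AEN element, chr15:88621306-88621325, lies in an annotated exon of AEN and starts 34 bases before the RefSeq start.
MDM2: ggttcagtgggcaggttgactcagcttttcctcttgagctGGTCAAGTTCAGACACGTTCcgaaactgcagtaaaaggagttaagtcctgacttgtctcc
FAS: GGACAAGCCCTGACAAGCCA
AEN: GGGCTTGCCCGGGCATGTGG
MDM2 rose, FAS fell and AEN fell in DIS3-sh1, with the values given below under their roles. A match is a description of the letters, not evidence of binding in these cells. Bases outside these windows were not searched, so members without a match may still hold an element. No promoter entry was found for TP53INP1, TNFRSF10B, RRM2B, GADD45A, PHLDA3, FBXO22 and CMBL.

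Library totals ranged from 19800892 to 23532148 counts, and levels are in CPM, counts scaled to library size with TMM factors. DIS3 fell from 180 ± 5.62 CPM in Scramble to 27.4 ± 0.73 CPM in DIS3-sh1 (SD, n = 3 each), as the labels say. Vimentin (VIM), LIN28B and the neurofilament genes NEFL and NEFM, which 293T cells are known to express, were present at means of 65.7 to 1295 CPM. PAX2 was low, with means of 1.67 and 4.33 CPM. CD3E, COL1A2, KRT5 and KRT14, markers of leukocytes, fibroblasts and keratinocytes, had 0 counts in every library. CD68 was the highest of the 10 markers of other cell types, with means of 0.45 CPM (Scramble) and 1.09 CPM (DIS3-sh1). DIS3-sh1 replicate 1 stood apart from its group in a chi-square of counts, but hardly in correlation of log2 CPM. Its correlation was 0.9923 with replicate 2 and 0.9925 with replicate 3, against 0.9930 between replicates 2 and 3. The chi-square per degree of freedom was 5.83 and 5.92 between replicate 1 and replicates 2 and 3. It was 1.61 between replicates 2 and 3 and 1.90 to 1.98 within Scramble. Replicate 1 was the lowest DIS3-sh1 library for 16 members and the highest for 10. Values per library are ordered as replicates 1, 2 and 3 throughout.

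The p53 targets split evenly between genes that rose and genes that fell. In DIS3-sh1, 13 of 31 rose, 13 fell and 5 were not called (edgeR quasi-likelihood test, adjusted p under 0.05). Among all 19591 genes tested, 34.5% were higher and 32.6% lower, together 67.0%. The members were better expressed than most genes, with a median Scramble level of 40.1 CPM against 13.5 CPM. Of the 27 members with a mean of at least 10 CPM, 44.4% rose and 44.4% fell, together 88.9%, while among all 10878 genes at that level 33.5% were higher and 46.1% lower, together 79.5%. Most well-expressed genes were thus called, members or not. The groups did not overlap for 24 members, or 77.4%, against 69.8% of all genes. The median log2 fold change was 0.11 for the members and 0.02 for all genes tested. Without DIS3-sh1 replicate 1, 12 members rose and 12 fell, and the members' median was 0.074. With upper-quartile scaling the members' median was 0.20, beside 0.10 for all genes.

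**Figure D1:**
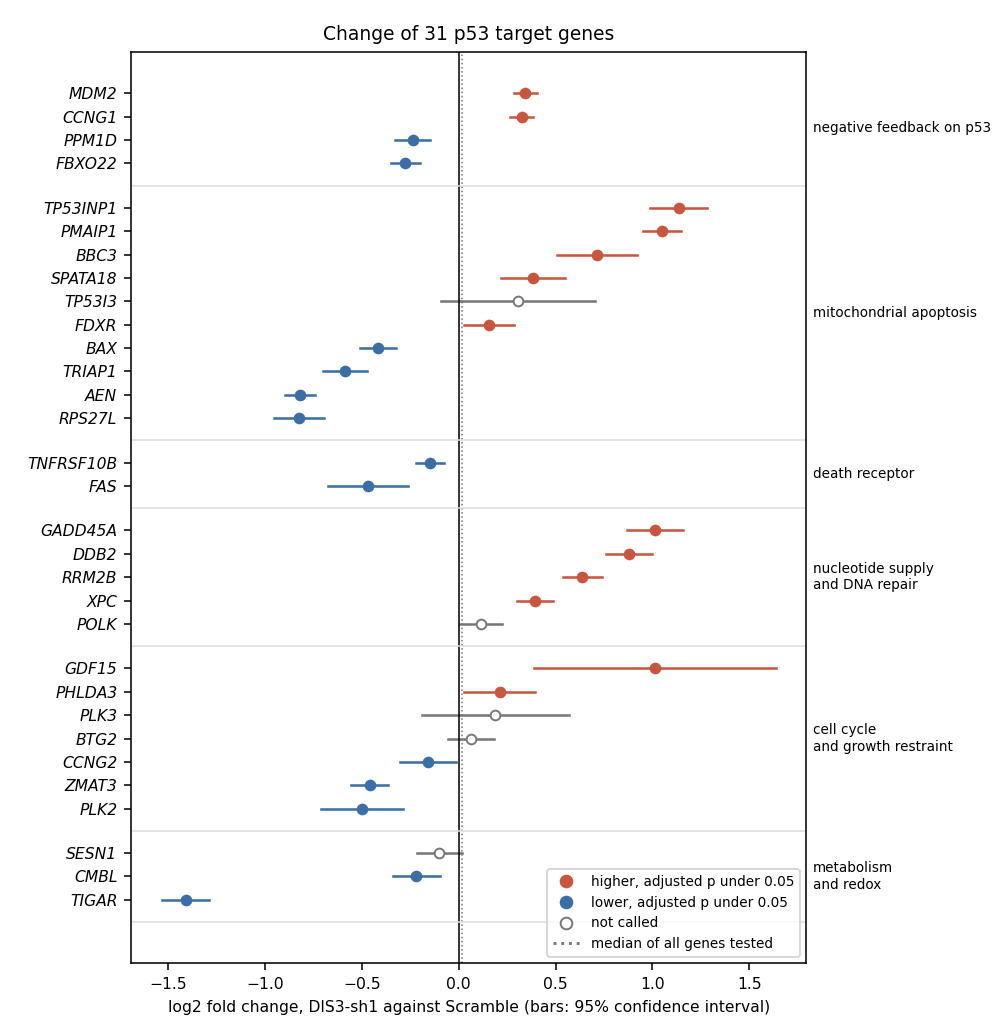
The log2 fold change of each p53 target gene (DIS3-sh1 against Scramble, x axis) with its 95% confidence interval, grouped by role, with filled points for genes that passed the test. TIGAR lies farthest to the left at -1.41 and TP53INP1 farthest to the right at 1.14, and only the death receptor and the metabolic genes lack a member that rose.

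Changes were mostly modest, and of a size near that of other genes. The median absolute log2 fold change was 0.39 for the members and 0.41 for all genes tested. Of the 26 members called, 15 changed by less than 1.5-fold. At least 2-fold higher were 4 members (TP53INP1, PMAIP1, GDF15 and GADD45A), where 10.1% of all genes were so, and at least 2-fold lower was 1 (TIGAR), where 3.94% of all genes were so. The sum over all members was 1742, 1765 and 1732 CPM in Scramble and 1808, 1870 and 1866 CPM in DIS3-sh1. The sum was therefore higher in each DIS3-sh1 library than in any Scramble library. MDM2 and CCNG1, both of the negative feedback role, were its largest terms in both groups. By role, mean sums rose for negative feedback (682 to 782 CPM) and for nucleotide supply and DNA repair (180 to 263 CPM). They fell for death receptors (132 to 116 CPM), cell cycle and growth restraint (177 to 152 CPM) and metabolism and redox (133 to 92.4 CPM). For mitochondrial apoptosis they were 443 and 442 CPM. Each of the falls came mostly from 1 gene. These were TNFRSF10B (119 to 107 CPM), ZMAT3 (85.0 to 61.8 CPM) and TIGAR (52.5 to 19.8 CPM). In cell cycle and growth restraint, 2 of the 7 members were called higher. In bulk RNA, fewer cells that express a gene and less of its RNA per cell cannot be told apart.

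**Figure D2:**
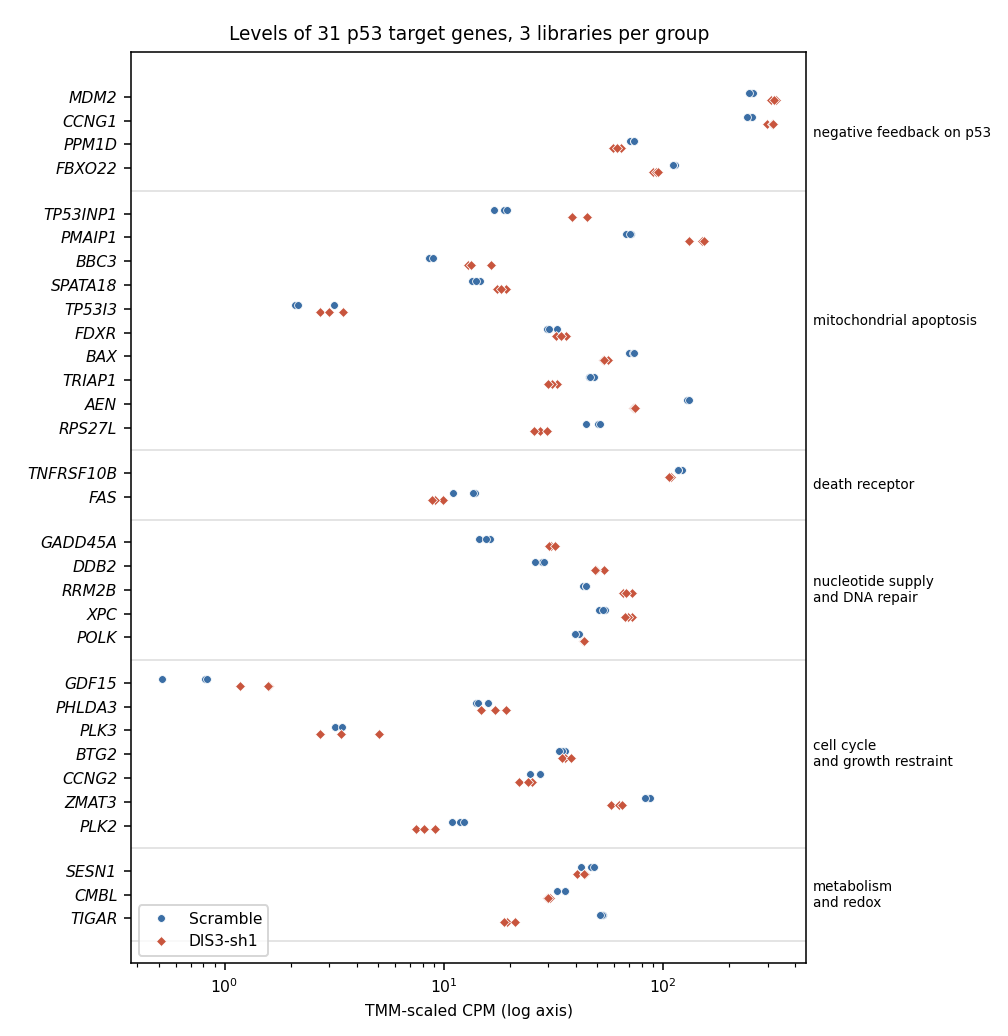
Levels of the p53 target genes in each of the 6 libraries, as TMM-scaled CPM on a log axis, with circles for Scramble and diamonds for DIS3-sh1. Groups stand clear of each other for 24 genes, and the lowest genes, GDF15, TP53I3 and PLK3, scatter most.

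Genes that restrain p53 went both ways. MDM2, the ligase that sends p53 to the proteasome, measured 251, 256 and 247 CPM in Scramble and 311, 326 and 319 CPM in DIS3-sh1. Every DIS3-sh1 library was above every Scramble library, a log2 fold change of 0.34 ± 0.03 (SE, adjusted p = 2.57e-12). CCNG1, cyclin G1, which recruits a phosphatase to MDM2, measured 247, 253 and 240.3 CPM in Scramble and 296, 314 and 317 CPM in DIS3-sh1, again without overlap (0.32 ± 0.03, adjusted p = 4.59e-11). PPM1D, the phosphatase WIP1 that turns off p53 and ATM signalling, was lower in all 3 DIS3-sh1 libraries: 70.6, 73.7 and 73.5 CPM became 59.2, 64.0 and 61.4 CPM (-0.24 ± 0.05, adjusted p = 2.77e-05). With upper-quartile scaling its change was -0.16. FBXO22, a subunit of a ubiquitin ligase, fell from 112 ± 1.27 to 92.4 ± 2.17 CPM, with no overlap (-0.28 ± 0.04). Of its exon bases, 16.2% also lie in exons of NRG4 on the opposite strand, which measured 1.79 and 1.72 CPM. MDM2 and CCNG1 thus moved in the opposite direction to PPM1D and FBXO22, each by a small fold.

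Among the genes tied to mitochondrial apoptosis, the BH3-only members rose and the pore-forming gene fell. PMAIP1, which encodes NOXA, an antagonist of MCL1, had 68.1, 71.4 and 70.8 CPM in Scramble and 131, 150.3 and 154 CPM in DIS3-sh1. The lowest DIS3-sh1 library, replicate 1, was still well above the highest Scramble library, and the log2 fold change was 1.05 ± 0.05 (adjusted p = 3.19e-17). BBC3, which encodes PUMA, a binder of all anti-apoptotic BCL2 proteins, had 8.53, 8.53 and 8.95 CPM in Scramble and 16.4, 12.9 and 13.3 CPM in DIS3-sh1. Here replicate 1 was the highest DIS3-sh1 library, and all 3 lay above Scramble (0.71 ± 0.10, adjusted p = 2.81e-07). BAX, which permeabilises the outer mitochondrial membrane, had 70.3, 73.3 and 74.0 CPM in Scramble and 55.9, 53.2 and 53.5 CPM in DIS3-sh1. Its groups did not overlap in the downward direction (-0.42 ± 0.05, adjusted p = 1.63e-09).

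TP53INP1, a regulator of p53 phosphorylation and autophagy, had the largest rise of all members. It measured 18.7, 19.4 and 16.9 CPM in Scramble and 38.2, 44.8 and 38.4 CPM in DIS3-sh1, a log2 fold change of 1.14 ± 0.07 (adjusted p = 5.46e-15). SPATA18, a mediator of mitochondrial quality control, rose from 14.0 ± 0.60 to 18.3 ± 0.83 CPM (0.38 ± 0.08), with no overlap. AEN, an apoptosis-enhancing nuclease, had 129, 129 and 131 CPM in Scramble and 73.0, 73.5 and 74.3 CPM in DIS3-sh1. The 3 libraries of each group were nearly level, and AEN fell by 0.82 on the log2 scale (SE 0.04, adjusted p = 1.56e-18). Of the members with a candidate element shown above, AEN and FAS fell and MDM2 rose.

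RPS27L, a ribosomal protein paralog that p53 induces, had 44.7, 50.3 and 51.7 CPM in Scramble and 27.4, 25.8 and 29.4 CPM in DIS3-sh1 (-0.83 ± 0.06, adjusted p = 5.39e-13). Its close paralog RPS27, from which reads could be split, rose from 63.7 to 74.4 CPM (0.22). TRIAP1, which inhibits apoptosome formation, fell from 46.9 ± 1.31 to 31.2 ± 1.42 CPM (-0.59 ± 0.06), with no overlap. FDXR, the mitochondrial ferredoxin reductase, measured 30.9 ± 1.69 and 34.3 ± 1.84 CPM, with overlapping groups. Its call (0.16 ± 0.06, adjusted p = 0.0278) was lost with DESeq2 (adjusted p = 0.152) and on leaving out Scramble replicate 1 (0.145), Scramble replicate 2 (0.0924), DIS3-sh1 replicate 1 (0.106) or DIS3-sh1 replicate 3 (0.0507). TP53I3, a quinone oxidoreductase linked to oxidative stress, measured 2.46 ± 0.59 and 3.07 ± 0.38 CPM and did not pass (0.30, 95% confidence interval -0.09 to 0.70, adjusted p = 0.169). Without Scramble replicate 1 it passed at adjusted p = 0.0365. Of the 10 genes grouped under this role, 5 rose, 4 fell and 1 was not called. Among all genes, 34.5% were higher and 32.6% lower. The role is broad and includes TRIAP1, which opposes apoptosis, so its counts give no direction for apoptosis itself.

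Both death receptors fell, where 32.6% of all genes were lower. FAS, the receptor of FAS ligand, had 13.8, 13.6 and 11.1 CPM in Scramble and 9.89, 9.08 and 8.85 CPM in DIS3-sh1 (-0.47 ± 0.10, adjusted p = 1.58e-04). The lowest Scramble library lay just above the highest DIS3-sh1 library. ACTA2, which shares 380 exon bases with FAS on the opposite strand, rose from 4.66 to 23.6 CPM (log2 fold change 2.34). Whether counting used strand is not given in the sources used here, so reads in the shared bases cannot be assigned with certainty. TNFRSF10B, the TRAIL receptor DR5, fell from 119 ± 2.40 to 107 ± 1.35 CPM with no overlap (-0.15 ± 0.04). With upper-quartile scaling that fall was -0.07 and was not called (adjusted p = 0.0943).

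Nucleotide supply and DNA repair was the only role in which no member fell. Of its 5 genes, 4 rose and 1 was not called, where 34.5% of all genes were higher. In all 5, every DIS3-sh1 library was above every Scramble library, as in 6980 of the 19591 genes tested. POLH, another translesion polymerase gene, is not a member but is in the further list of p53-activated genes below. It fell from 70.3 ± 2.04 to 54.4 ± 1.86 CPM (-0.37 ± 0.05, named after its values were seen). GADD45A, a damage sensor that binds PCNA, had 14.5, 16.2 and 15.6 CPM in Scramble and 30.8, 30.3 and 32.0 CPM in DIS3-sh1, a log2 fold change of 1.01 ± 0.07 (adjusted p = 6.53e-14). DDB2, the ultraviolet damage recognition subunit, had 27.9, 26.0 and 28.8 CPM in Scramble and 53.6, 49.5 and 48.9 CPM in DIS3-sh1 (0.88 ± 0.06, adjusted p = 2.10e-14). Both genes lay far outside the spread of their Scramble libraries. RRM2B, the p53-induced subunit of ribonucleotide reductase, had 42.9, 44.6 and 44.4 CPM in Scramble and 65.3, 71.9 and 67.9 CPM in DIS3-sh1 (0.64 ± 0.05, adjusted p = 7.28e-13).

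XPC, the partner of DDB2 in nucleotide excision repair, had 54.3, 51.1 and 53.1 CPM in Scramble and 71.9, 69.2 and 67.3 CPM in DIS3-sh1 (0.39 ± 0.05). Of the exon bases of XPC, 30.4% also lie in exons of other genes, among them LSM3 on the opposite strand, which fell by 0.61 on the log2 scale. POLK, a translesion polymerase, measured 40.1 ± 0.96 and 43.5 ± 0.34 CPM and missed the threshold (0.11 ± 0.05, adjusted p = 0.0542). It passed with upper-quartile scaling (adjusted p = 0.00164), with the stricter filter (0.0381), with the replicate number as a block (0.0486) and without DIS3-sh1 replicate 1 (0.0493). Summed over the 5 repair genes, the level was 179, 179 and 181 CPM in Scramble and 265, 265 and 259.5 CPM in DIS3-sh1.

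Genes of cell cycle and growth restraint were mixed, with 2 higher, 3 lower and 2 not called of 7. Over all genes tested, 34.5% were higher and 32.6% lower. ZMAT3, a zinc finger RNA-binding protein, had 85.4, 87.4 and 82.3 CPM in Scramble and 57.7, 62.8 and 64.9 CPM in DIS3-sh1 (-0.46 ± 0.05, adjusted p = 2.70e-10). PLK2, a polo-like kinase of the stress response, had 10.9, 11.8 and 12.4 CPM in Scramble and 7.48, 8.13 and 9.14 CPM in DIS3-sh1 (-0.50 ± 0.10, adjusted p = 8.97e-05). Both fell without overlap. Its relative PLK3 measured 3.27 ± 0.14 and 3.71 ± 1.20 CPM and was not called (0.19, 95% confidence interval -0.19 to 0.57). GDF15, a secreted stress cytokine, was the lowest member, with 0.52, 0.81 and 0.83 CPM in Scramble and 1.18, 1.60 and 1.57 CPM in DIS3-sh1. It rose by a log2 fold change of 1.01 ± 0.31 (adjusted p = 0.00442), a value that rests on 12 to 33 counts per library.

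PHLDA3, an inhibitor of AKT, had 14.1, 15.9 and 14.3 CPM in Scramble and 19.2, 14.8 and 17.1 CPM in DIS3-sh1, and the groups overlapped. Its call (0.21 ± 0.09, adjusted p = 0.0398) was lost with RLE scaling (adjusted p = 0.0524), with DESeq2 (0.187), and when any of these was left out: Scramble replicate 1 (0.154), Scramble replicate 3 (0.120), DIS3-sh1 replicate 1 (0.256, with a change of 0.12) or DIS3-sh1 replicate 3 (0.0795). CCNG2, cyclin G2, an inhibitory cyclin that also answers to FOXO, measured 26.6 ± 1.55 and 23.8 ± 1.69 CPM with overlapping groups (-0.16 ± 0.07, adjusted p = 0.0481). Upper-quartile scaling ended that call (adjusted p = 0.335, change -0.08), as did DESeq2 (0.115) and the stricter filter (0.0558). It was also lost without Scramble replicate 2 (0.142), Scramble replicate 3 (0.125), DIS3-sh1 replicate 1 (0.232, change -0.10) or DIS3-sh1 replicate 3 (0.0676). The paralogs CCNG1 and CCNG2 were thus called in opposite directions, but the call of CCNG2 did not hold in those settings. BTG2, an antiproliferative partner of the CCR4-NOT deadenylase, measured 34.6 ± 1.06 and 36.2 ± 1.66 CPM and was not called (0.06, 95% confidence interval -0.06 to 0.18). With upper-quartile scaling it was called (adjusted p = 0.0306).

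TIGAR had the largest change of all members. This gene, at chr12:4307763-4354593 on the plus strand (GRCh38), whose product lowers fructose-2,6-bisphosphate and so diverts glucose from glycolysis, had 53.3, 52.8 and 51.5 CPM in Scramble and 19.3, 21.1 and 18.8 CPM in DIS3-sh1. Levels within each group were tight, and TIGAR fell by 1.41 on the log2 scale (SE 0.06, adjusted p = 2.86e-19). It shares 1711 exon bases with ENSG00000285901, a coding gene model on the same strand, which measured 26.4 and 27.7 CPM and was not called (0.07, adjusted p = 0.355). Reads of the shared bases may be split between the pair. CMBL, a carboxymethylenebutenolidase homolog, fell from 34.8 ± 1.60 to 29.9 ± 0.53 CPM (-0.22 ± 0.06, and -0.14 with upper-quartile scaling). SESN1, a stress-inducible inhibitor of mTORC1, measured 45.8 ± 3.17 and 42.8 ± 1.89 CPM and was not called (-0.10, 95% confidence interval -0.22 to 0.01, adjusted p = 0.116). Without Scramble replicate 3 it was called lower (adjusted p = 0.0240).

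Per kilobase of exon, the order of the members in Scramble ran from CCNG1 at 79.7 CPM per kb, TRIAP1 at 32.5, PMAIP1 at 31.4 and BAX at 28.0 CPM per kb down to PLK3 at 0.94 and GDF15 at 0.34 CPM per kb. The SD over libraries was 0.91 CPM per kb for TRIAP1 and 0.81 CPM per kb for PMAIP1, and the difference between these neighbours was not tested. The level of MDM2 was 18.9 CPM per kb in Scramble, because its annotated exons span 13284 bases. In DIS3-sh1, PMAIP1 reached 64.9 CPM per kb and stood second to CCNG1 at 99.8 CPM per kb among the members named here. BAX was at 21.0 CPM per kb in that group.

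The regulators MDM4 and USP7 moved in opposite directions. MDM4, the inhibitory partner of MDM2, had 139, 145 and 142 CPM in Scramble and 172, 187 and 179 CPM in DIS3-sh1 (0.34 ± 0.03, adjusted p = 4.57e-10). The rise of MDM4 was of the same size as that of MDM2. USP7, the deubiquitinase of MDM2 and p53, had 319, 317 and 317 CPM in Scramble and 191, 206 and 203 CPM in DIS3-sh1 (-0.67 ± 0.03, adjusted p = 9.68e-19).

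**Figure D3:**
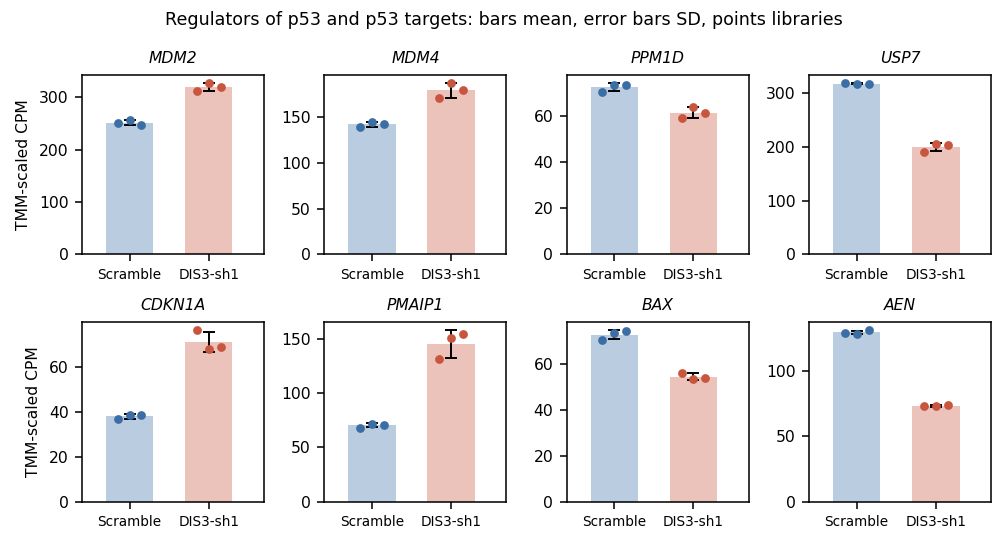
TMM-scaled CPM of the regulators MDM2, MDM4, PPM1D and USP7 and of the targets CDKN1A, PMAIP1, BAX and AEN, with bars for the mean of 3 libraries, error bars for the SD and points for libraries. MDM2, MDM4, CDKN1A and PMAIP1 are higher in every DIS3-sh1 library than in any Scramble library, and PPM1D, USP7, BAX and AEN are lower.

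Most other regulators of p53 fell. In a list of regulators, 23 of 31 genes were lower (74.2%), 5 higher and 3 neither, and the list's median change was -0.27 (log2); HUWE1 and RPL23, among those that fell, had changes of 0.02 and 0.01 with upper-quartile scaling. Among all genes tested 32.6% were lower, and 46.1% among those with a mean of at least 10 CPM. Upper-quartile scaling also ended the calls of CHEK2, COP1, DAXX and RPL5. Of the genes with the smallest p, KMT5A, which methylates p53, fell from 130 ± 0.09 to 70.4 ± 2.32 CPM (-0.88 ± 0.04). EP300, an acetyltransferase coactivator of p53, fell by 0.55 on the log2 scale. NPM1, nucleophosmin, fell by 0.49 from 1677 ± 9.37 CPM. The members that rose besides MDM4 were the kinase genes ATM (0.27) and CHEK1 (0.29), SETD7 (0.12) and PPP1R13L, which encodes the p53 inhibitor iASPP (1.07 ± 0.10). ATM, CHEK1, SETD7 and PPP1R13L were named after their values were seen.

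A further list of 52 genes reported as p53-activated held more rises than falls. Of its 45 tested genes, 60.0% (27) were higher, 24.4% (11) lower and 7 neither, and the median change was 0.44 (log2). Among all genes 34.5% were higher and 32.6% lower, and among those with a mean of at least 10 CPM 33.5% and 46.1%. The list holds genes on both sides of that level. At least 2-fold higher were 8 of the 45, against 10.1% of all genes. Of these, ALOX5, GLS2, MIR34AHG, CPT1C and ORAI3 were low, with DIS3-sh1 means of 2.64 to 5.24 CPM (named after their values were seen). CDKN1A, the cyclin-dependent kinase inhibitor p21, had 36.5, 38.6 and 38.5 CPM in Scramble and 76.1, 67.8 and 68.5 CPM in DIS3-sh1, with no overlap (0.90 ± 0.05, adjusted p = 7.26e-16). PLXNB2, a semaphorin receptor, rose from 87.8 ± 2.21 to 194 ± 7.18 CPM (1.14 ± 0.04). SESN2, the relative of SESN1 that also answers to ATF4, rose from 83.6 ± 1.69 to 146 ± 7.21 CPM (0.80 ± 0.04) and PLTP, a phospholipid transfer protein, from 16.8 ± 1.81 to 35.1 ± 1.86 CPM (1.06 ± 0.07). SERTAD1 fell most (-1.19 ± 0.18, named after its values were seen). TNFRSF10A, TNFRSF10C, SFN, TRIM22, TP53AIP1, PRDM1 and SERPINB5 were too low to be tested. No test compares this list with the 31 members, and both lists were drawn up with earlier results of these data known.

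MIR34AHG, the host transcript of miR-34a, a microRNA that p53 induces and that targets cell cycle genes, had the largest rise of that list. It had 0.99, 1.05 and 1.22 CPM in Scramble and 4.24, 4.44 and 4.47 CPM in DIS3-sh1, a log2 fold change of 2.01 ± 0.20 (adjusted p = 1.93e-10, chosen for its size). The mature product is shown with its seed, bases 2 to 8, in capitals, as RefSeq gives it. The values are those of the host transcript, and no value of the mature microRNA is given here.
hsa-miR-34a-5p: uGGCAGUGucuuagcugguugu

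Genes listed as lowered by p53 through the DREAM repressor complex in other settings were mostly lower. Whether p53 or DREAM acted on them in these cells, which express large T antigen, was not tested. Of these 24 genes, 18 were lower, 2 higher and 4 neither, and the median change was -0.39 (log2). Among all genes 32.6% were lower, and 46.1% among those with a mean of at least 10 CPM. CDC20, which starts anaphase by activating a ubiquitin ligase (-1.23 ± 0.04), PLK1, a mitotic kinase (-0.82 ± 0.04), CCNB1, cyclin B1 (-0.78 ± 0.03), and KIF23, a cytokinesis motor (-0.64 ± 0.04), had the smallest p. CDC25C (0.18) and TOP2A (0.14) rose, both named after their values were seen, and the call of CDC25C ended with DESeq2 (adjusted p = 0.121), with Scramble replicate 3 left out (0.0640) and with DIS3-sh1 replicate 2 left out (0.0935). Of 12 genes that FOXO factors activate, 5 were higher (41.7%), 2 lower and 5 neither (median 0.10, log2). The share called was 58.3%, against 67.0% of all genes. TXNIP, a thioredoxin inhibitor, rose from 30.6 ± 1.05 to 121 ± 1.20 CPM (1.99 ± 0.05) and TRIB1, a pseudokinase, by a log2 fold change of 0.83. BCL2L11, which encodes the BH3-only protein BIM, fell by 0.63 and CITED2, a coactivator inhibitor, by 0.64. BIM thus went against the BH3-only members PMAIP1 and BBC3.

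**Figure D4:**
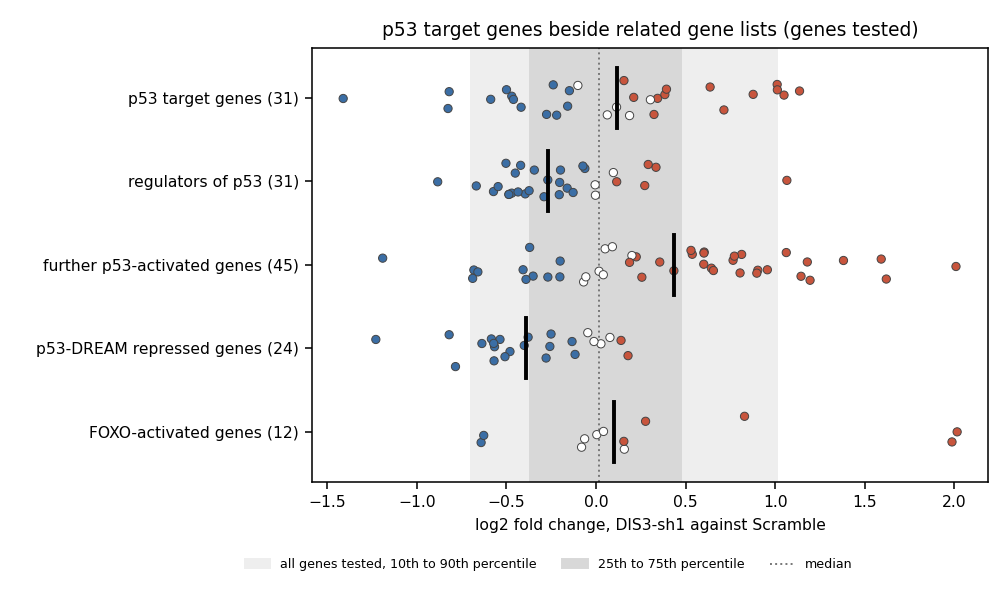
The log2 fold change (DIS3-sh1 against Scramble, x axis) of each tested gene in 5 lists, red for higher, blue for lower and white for not called, with a black bar at each list's median and grey bands for all genes tested. The p53 targets straddle the centre with a median of 0.11 (0.074 without DIS3-sh1 replicate 1, 0.20 with upper-quartile scaling), the further p53-activated genes sit to the right at 0.44 and the DREAM genes to the left at -0.39.

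AU-rich ATTTA motifs, known as marks of unstable mRNAs, were counted in the members' 3′ UTRs as a description. In the longest annotated 3′ UTR of each gene (GENCODE 29), members had a median of 4 ATTTA motifs (searched on the transcript strand, overlaps counted), against 2 over 13453 tested genes. At least 1 motif was present in 83.9% of members and 73.5% of tested genes. Members that rose had a median of 2.91 motifs per kb, members that fell 2.18 and tested genes 1.67. By count the order was the other way, with a median of 3 motifs in members that rose and 5 in members that fell, and at least 1 motif in 76.9% and 92.3% of them. RRM2B had 22 motifs and GDF15 5 in 241 bases, while DDB2, BBC3, FDXR, BAX and TP53I3 had 0. The median Scramble level was 27.6 CPM for members that rose and 52.5 CPM for members that fell. Exon bases are shared with another gene for 12 of the 31 members, and 19 share none. The shared part was largest for TIGAR (45.6%), XPC (30.4%), PHLDA3 (19.1%), FBXO22 (16.2%), POLK (10.8%) and MDM2 (9.21%). Reads in shared bases cannot be assigned with certainty. Among the genes that share bases with MDM2, ENSG00000256664 on the same strand rose by 0.31 on the log2 scale.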

How the data were processed

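The members and lists were chosen with earlier results of these data known. The authors deposited expected counts per gene, some of them fractional. The submitters' processing notes name featureCounts 1.5.1, HISAT2 2.1.0, Bowtie2 2.3.5, SAMtools and the build hg38; their roles and settings, the annotation and the use of strand are not given in the sources used here. Of 9 columns of per-sample values, 3 match no sample label and were not used, so the tests planned for DIS3-sh2 were not run and the fit holds 6 libraries. Counts were rounded to whole numbers and tested over all 19591 genes that passed the expression filter with edgeR 4.0.16 in R 4.3.3 (TMM, group as the only term, robust quasi-likelihood F-test, two-sided, Benjamini-Hochberg), the source of every adjusted p unless another is named. SE is the size of the log2 fold change over the root of its F statistic, and 95% intervals use its degrees of freedom. The fit was tested on simulated data in which 200 of 19591 genes were changed, far fewer than were called here. Of the calls in that simulation, 7.89% were false. The share called was 45.8% of genes changed 1.25-fold, 73.5% at 1.5-fold, 71.4% at 2-fold and 100% at 4-fold. Named were all members, DIS3, MDM4, CDKN1A, and up to 4 genes of each other list with the smallest p; some planned genes are not reported here and were left out of the lists. Coordinates and exon lengths are from GENCODE 29 on GRCh38. A response element had to keep the central C and G of both 10-base motifs, with at most 2 other mismatches and a spacer of at most 1 base. The 12 alternatives were upper-quartile and RLE scaling, DESeq2 1.42.0, no filter, at least 1 CPM in 3 libraries, the replicate number as a block, and leaving out each library. Samples are biological replicates, per the series' design text.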

Additional observations from a re-analysis of the deposited data

How the results depend on the processing

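Over the 12 alternatives, 11 to 15 members were higher and 11 to 13 lower; both counts stayed within 1.5 times those reported. Of the 13 that rose, 11 kept their call in every alternative, and likewise 11 of the 13 that fell. The calls of FDXR, PHLDA3, CCNG2 and TNFRSF10B were lost in the settings given beside them, and POLK, TP53I3, SESN1 and BTG2 gained one. With upper-quartile scaling 15 members were higher and 11 lower, and over all genes 7745 and 5471; the median of all genes then moved from 0.02 to 0.10. In that setting HUWE1 had a change of 0.018 (adjusted p = 0.452) and RPL23 of 0.0074 (0.814), against -0.06 and -0.07 as reported. Leaving out 1 library gave 11 to 13 members higher and 12 to 13 lower. With the replicate number as a block, 14 members were higher and 13 lower, and POLK was the member whose call changed. Deviations of same-numbered libraries correlated by 0.04, 0.01 and 0.01 across genes, under 0.1, so the numbers are not taken to pair the libraries, although every library correlated best with its own number. A fit of only the 2 groups compared is the fit reported. Depth limits GDF15, TP53I3 and PLK3, whose lowest counts in a library were 12, 44 and 57.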
